A study of Homo sapiens with 12 samples.

Results

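Apoptosis is run by a small set of gene families, and 40 of their genes were followed here: the BCL2 family, the caspases, the inhibitor of apoptosis proteins, the factors released from mitochondria, and the death receptors with their adaptors. A member was taken as the locus whose gene name, split at semicolons, holds its symbol, and the locus with the highest mean level where there were several. A locus was found for 39 of the 40 genes, among 30574 loci in all; for BCL2A1, an anti-apoptotic BCL2 relative, no locus by that name was matched, and it is not analysed here. Of the 39, 32 passed the filter on low values (1 FPKM or more in 2 or more libraries) and were tested.

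The cells were IOSE80, an immortalised line from normal human ovarian epithelium, and all groups were exposed for 28 days. The control group received 0.1% DMSO (n = 3). The treated groups received bisphenol A (BPA, a monomer of polycarbonate plastics with weak oestrogenic activity) at 0.25 nM (n = 3) or 2500 nM (n = 3), or E2, the common short name of estradiol (n = 2). The labels give no dose for E2 and no solvent for the treated groups, so DMSO is read here as the vehicle, and E2 replicate 3 was not analysed here. The labels do not say whether replicates came from separate cultures. If they did not, the p-values below measure technical spread between libraries of a single line.

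In the mitochondrial route to apoptosis, BAX and BAK1 open the outer membrane, the anti-apoptotic BCL2 proteins hold them back, and the BH3-only proteins release that hold or activate the pore formers directly. Cytochrome c then leaves the mitochondria and assembles with APAF1 and CASP9 into the apoptosome, while inhibitor of apoptosis proteins restrain caspases until DIABLO displaces them. In the other route, death receptors such as FAS and TNFRSF10B recruit FADD and CASP8, and CFLAR competes with CASP8 for that complex. Much of this control lies in protein binding, cleavage and turnover, which RNA levels do not show.

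Levels are the authors' FPKM, fragments scaled to transcript length and library size, so they can be compared between genes. FPKM totals lay between 206719 and 213663 per library. They were lowest in E2 replicate 2 (206719) and DMSO replicate 2 (206774), and at least 210156 elsewhere. The same 2 libraries had the most loci above 0 (22699 and 23696, against at most 22224 elsewhere). Its part in the results below was not tested, and the read depth behind the totals is unknown. The share of FPKM on mitochondrially encoded genes was 13.63% to 14.31% with DMSO, 12.62% to 12.66% with BPA 0.25 nM, 12.94% to 13.62% with BPA 2500 nM and 12.26% to 14.0% with E2, and its part in the results below was not tested. The label of ovarian epithelium was only partly borne out by a list of 12 markers, of which 4 passed the filter. ALDH1A1 (95 to 121 FPKM) and KRT18 (19.8 to 27.0) were high, and NR2F2 (mean 3.19) and KRT8 (mean 1.34) were low. KRT7, EPCAM, KRT19 and MSLN did not exceed 0.74 FPKM in any library, and CDH1, WT1, GATA4 and PAX8 did not exceed 0.03. Of 5 mesenchymal markers, the filament gene VIM stood at 624 to 828 FPKM, while CDH2, COL1A1, COL1A2 and FN1 did not exceed 0.73 FPKM. PTPRC of leukocytes and CDH5 of endothelium did not exceed 0.01; CD68 was matched only to a locus joined with EIF4A1 and SENP3 and tells nothing.

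The cells carried a full set of both routes, with gaps in single families. Among the anti-apoptotic BCL2 genes, MCL1 was the highest, a short-lived guard of BAK1 that cells replace constantly. MCL1 stood at 39.7, 33.1 and 39.4 FPKM with DMSO, 33.4, 32.1 and 38.8 with BPA 0.25 nM, 33.8, 35.4 and 33.5 with BPA 2500 nM and 42.6 and 47.3 with E2. Both E2 libraries lay above every other library. The MCL1 locus (GRCh38 chromosome 1, 150560202 to 150579738, minus strand) also names the noncoding gene ADAMTSL4-AS1, so the MCL1 level is uncertain to that extent. BCL2L1, which encodes BCL-XL, stood at 11.3, 10.8 and 11.5 FPKM with DMSO, 11.2, 12.3 and 12.0 with BPA 0.25 nM, 13.5, 12.6 and 11.3 with BPA 2500 nM and 11.5 and 10.7 with E2, and its groups overlapped. BCL2L2, which encodes BCL-W, stood at 16.2, 15.9 and 13.7 FPKM with DMSO, 17.2, 14.0 and 13.3 with BPA 0.25 nM, 14.3, 21.0 and 15.7 with BPA 2500 nM and 16.0 and 17.2 with E2. Its locus also names PABPN1, a gene for a poly(A)-binding protein, and the readthrough of both, so this level is uncertain. BCL2 itself, the founder of the family, did not exceed 1.01 FPKM in any library and was too low to be tested. MCL1 exceeded BCL2L1 in each of the 11 libraries, at 2.5 to 4.42 times its level, and the joined locus of BCL2L2 exceeded BCL2L1 in each as well, at 1.06 to 1.67 times.

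**Figure D1:**
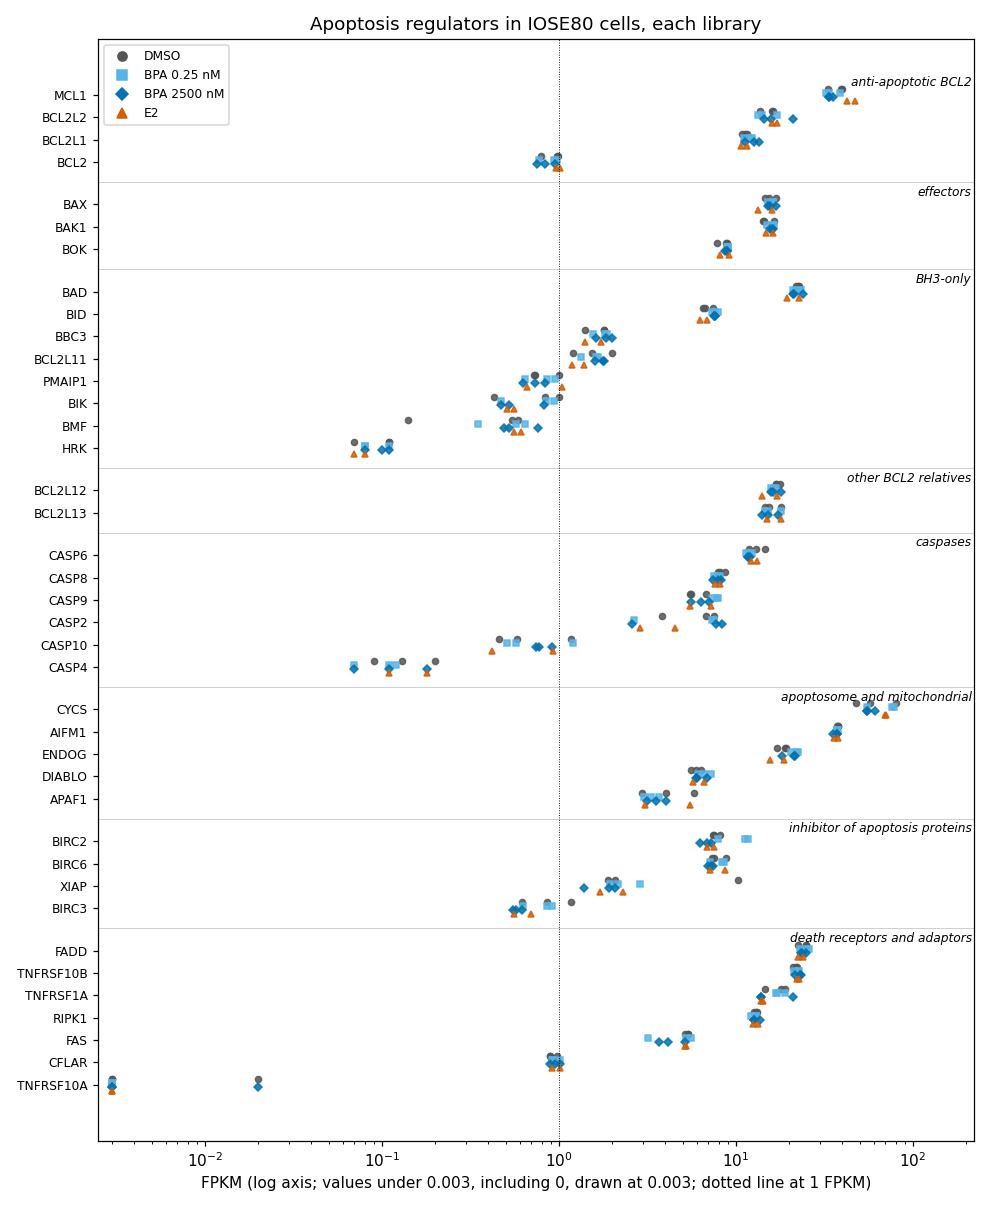
FPKM of the 39 members with a locus (log axis), a row per gene within its role class, with a point for each library coloured by group; values under 0.003 are drawn at 0.003 and the dotted line marks 1 FPKM. CYCS, AIFM1 and MCL1 are the highest, TNFRSF10A, HRK and CASP4 are near 0, and for most genes the points of the 4 groups lie on top of each other.

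The effectors were level with each other. BAX stood at 16.8, 14.7 and 15.4 FPKM with DMSO, 16.2, 16.1 and 15.3 with BPA 0.25 nM, 16.8, 15.2 and 15.5 with BPA 2500 nM and 16.1 and 13.4 with E2. BAK1 stood at 14.4, 14.2 and 16.5 FPKM with DMSO, 15.1, 16.3 and 16.1 with BPA 0.25 nM, 16.1, 15.5 and 16.2 with BPA 2500 nM and 16.1 and 14.9 with E2. The ratio of BAX to BAK1 ran from 0.899 to 1.17 over the libraries, and no group separated from another for either gene. BOK, a related pore former, was lower, at 8.75 FPKM on average.

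Among the 8 BH3-only genes, levels spanned a wide range. BAD, which binds BCL-XL and is switched off by growth factor signalling, was the highest, at 22.5, 21.8 and 22.8 FPKM with DMSO, 20.9, 23.4 and 22.3 with BPA 0.25 nM, 21.2, 23.8 and 21.1 with BPA 2500 nM and 22.7 and 19.5 with E2. BID, which CASP8 cleaves to link the death receptors to mitochondria, stood at 7.40, 6.65 and 6.50 FPKM with DMSO, 7.37, 7.65 and 7.91 with BPA 0.25 nM, 7.58, 7.67 and 7.57 with BPA 2500 nM and 6.87 and 6.25 with E2. All 3 libraries of BPA 2500 nM lay above all of DMSO for BID (chromosome 22, 17734138 to 17774770, minus strand), while BPA 0.25 nM overlapped DMSO by a narrow margin. The stress-induced BH3-only genes were low: BBC3 (PUMA, a p53 target) averaged 1.71 FPKM, BCL2L11 (BIM) 1.56, PMAIP1 (NOXA, which binds MCL1) 0.80, BIK 0.67, BMF 0.52 and HRK 0.09. PMAIP1 passed the filter through 1 library of DMSO and 1 of E2, and BIK, BMF and HRK did not pass.

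The remaining BCL2 relatives have debated roles in cell death. BCL2L12 stood at 17.8, 16.9 and 16.9 FPKM with DMSO, 16.3, 16.8 and 15.7 with BPA 0.25 nM, 16.2, 18.1 and 15.8 with BPA 2500 nM and 17.0 and 14.1 with E2; the DMSO libraries lay just above those of BPA 0.25 nM. BCL2L13, a mitochondrial protein also known for its part in mitophagy, stood at 15.4, 14.6 and 18.1 FPKM with DMSO, 14.7, 18.1 and 15.2 with BPA 0.25 nM, 14.1, 15.1 and 17.2 with BPA 2500 nM and 18.1 and 15 with E2, with overlap throughout.

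Of the 6 caspase genes, CASP6 was the highest, an executioner that cleaves lamins. CASP6 stood at 14.6, 11.9 and 13.0 FPKM with DMSO, 11.9, 11.5 and 12.3 with BPA 0.25 nM, 11.9, 11.7 and 11.7 with BPA 2500 nM and 12.1 and 13.2 with E2. CASP8, the initiator of the death receptor route, stood at 8.69, 7.96 and 8.15 FPKM with DMSO, 8.09, 7.96 and 7.57 with BPA 0.25 nM, 7.97, 8.20 and 7.39 with BPA 2500 nM and 7.64 and 8.17 with E2. Neither gene had a group clear of the others. CASP9, the initiator in the apoptosome, stood at 5.61, 5.52 and 6.78 FPKM with DMSO, 7.85, 7.89 and 7.31 with BPA 0.25 nM, 7.05, 5.55 and 6.32 with BPA 2500 nM and 7.21 and 5.48 with E2. The 3 libraries of BPA 0.25 nM were the highest of all for CASP9 (chromosome 1, 15490832 to 15524889, minus strand). CASP10, a close relative of CASP8, averaged 0.75 FPKM, and CASP4, an inflammatory caspase that senses bacterial lipopolysaccharide, 0.12. CASP10 passed the filter only through DMSO replicate 2 (1.17 FPKM) and BPA 0.25 nM replicate 1 (1.2).

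The mitochondrial factors held the highest level of all members. CYCS, which encodes cytochrome c and serves respiration in living cells, stood at 80.3, 57.0 and 47.7 FPKM with DMSO, 76.6, 78.5 and 55.4 with BPA 0.25 nM, 55.2, 61.0 and 55 with BPA 2500 nM and 70.1 and 69.4 with E2. The DMSO libraries alone spanned the whole of that range. AIFM1, a flavoprotein of the intermembrane space, was the steadiest member, at 38.0, 37.0 and 37.9 FPKM with DMSO, 37.3, 37.4 and 37.9 with BPA 0.25 nM, 37.5, 37.3 and 35.5 with BPA 2500 nM and 37.8 and 36.0 with E2. Its highest library was 1.07 times its lowest. ENDOG, a mitochondrial endonuclease, stood at 19.3, 17.2 and 19.0 FPKM with DMSO, 22.4, 20.5 and 22.2 with BPA 0.25 nM, 21.4, 18.3 and 21.6 with BPA 2500 nM and 18.7 and 15.6 with E2, so that BPA 0.25 nM lay above DMSO without overlap. DIABLO averaged 6.26 FPKM, at a locus that also names VPS33A and is uncertain for that reason, and APAF1 3.82.

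Of the inhibitor of apoptosis genes, BIRC2 (cIAP1, a ubiquitin ligase of TNF receptor signalling) and BIRC6 (a giant ubiquitin ligase) were the highest. BIRC2 stood at 8.10, 7.57 and 7.43 FPKM with DMSO, 7.93, 11.8 and 11.3 with BPA 0.25 nM, 6.29, 6.88 and 7.24 with BPA 2500 nM and 6.88 and 7.51 with E2. The high values of BIRC2 (chromosome 11, 102347211 to 102378670, plus strand) were those of BPA 0.25 nM replicates 2 and 3, and replicate 1 lay within the DMSO range. BIRC6 stood at 7.57, 8.76 and 7.29 FPKM with DMSO, 8.61, 7.11 and 8.33 with BPA 0.25 nM, 7.27, 7.44 and 6.94 with BPA 2500 nM and 7.18 and 8.65 with E2. BIRC3 (cIAP2, a target of NF-kB) averaged 0.73 FPKM and was not tested.

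In the death receptor route, FADD and TNFRSF10B led. FADD, the adaptor, stood at 25.0, 22.4 and 24.9 FPKM with DMSO, 23.0, 25.9 and 25.0 with BPA 0.25 nM, 25.0, 23.7 and 23.5 with BPA 2500 nM and 23.8 and 22.3 with E2. TNFRSF10B, a receptor of the death ligand TRAIL, stood at 22.0, 22.2 and 21.1 FPKM with DMSO, 22.7, 21.2 and 22.5 with BPA 0.25 nM, 23.3, 23.1 and 21.6 with BPA 2500 nM and 22.2 and 22.8 with E2. Both were steady across groups. TNFRSF10A, the other death-inducing TRAIL receptor, was listed at 0 in 9 of the 11 libraries and at 0.02 FPKM in the other 2. TNFRSF1A, the TNF receptor that can signal survival or death, stood at 18.8, 17.9 and 14.6 FPKM with DMSO, 17.1, 19.0 and 16.9 with BPA 0.25 nM, 20.9, 13.9 and 13.8 with BPA 2500 nM and 14.2 and 14.0 with E2. RIPK1, its kinase, averaged 12.9 FPKM, FAS 4.85 and CFLAR 0.95. CFLAR passed the filter through 3 libraries and did not exceed 1.02 FPKM in any. The FAS locus also names a clone-based gene, AL157394.

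Against that background the treatments were compared. In none of the 4 comparisons did a member pass limma's test at an adjusted p under 0.05. Each fold change is on the log2(FPKM + 1) scale, which understates changes of low genes, with its standard error (SE). In this bulk RNA, fewer cells with a transcript and less of it per cell cannot be told apart. The comparisons with DMSO share the same 3 control libraries.

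BPA 0.25 nM against DMSO asked what the lower dose changed. Of the 32 tested members 0 were called by limma, against 0.0164% of all tested loci (2 loci), and 4 had an unadjusted p under 0.05 (12.5%, against 9.11% of all loci). All 4 were higher with BPA 0.25 nM: BIRC2 (log2 change 0.36 ± 0.12, SE), CASP9 (0.32 ± 0.11), ENDOG (0.22 ± 0.09) and BID (0.14 ± 0.06), with limma adjusted p from 0.45 to 0.518. They are 3 pro-apoptotic genes and 1 anti-apoptotic gene, picked by an unadjusted p at a share near that of all loci, so nothing is read from their sides. The libraries of both groups did not overlap for 4 members (CASP9, ENDOG and BOK above DMSO, BCL2L12 below), or 12.5%, against 17.1% of all loci. The median log2 change was 0.021 for the 21 tested pro-apoptotic members and 0.023 for the 7 anti-apoptotic ones, with 12 and 4 of them positive, beside 0.001 over all tested loci. Leaving out each library in turn moved these medians between 0.0026 and 0.051 and between -0.025 and 0.051, so the sign of the anti-apoptotic one was not stable. Both medians were smaller than the within-group SD of the medians of single libraries (0.04 for the pro-apoptotic and 0.0585 for the anti-apoptotic members).

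BPA 2500 nM against DMSO asked the same of the higher dose. Again 0 of 32 members were called by limma, against 1.3% of all tested loci (158 loci), and 1 had an unadjusted p under 0.05 (3.12%, against 17.2%). That member was BID, at 7.61 ± 0.06 against 6.85 ± 0.48 FPKM (SD, n = 3 each; log2 change 0.13 ± 0.06 SE, limma adjusted p = 0.269). BCL2L1 (0.14 ± 0.07, adjusted p = 0.323) and CASP6 (-0.14 ± 0.07, adjusted p = 0.336) came next. Groups did not overlap for 2 members, BID above DMSO and BIRC2 below, or 6.25% against 26.6% of all loci. The median log2 change was 0.018 for the pro-apoptotic members and -0.11 for the anti-apoptotic ones, beside -0.027 over all loci. In size, the pro-apoptotic median was under the within-group SD of the medians of single libraries (0.04). The anti-apoptotic one exceeded its SD (0.0585). The anti-apoptotic median was -0.04 without DMSO replicate 2, smaller in size than that SD. XIAP, which stood apart in that library, lay below the median in both fits (-0.74 and -0.10).

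E2 against DMSO asked what the hormone changed, with 2 E2 libraries. By limma 0 of 32 members were called, against 0.419% of all tested loci (51 loci), and 1 had an unadjusted p under 0.05 (3.12%, against 15.4%). That member was MCL1, at 45.0 ± 3.26 FPKM with E2 (SD, n = 2) against 37.4 ± 3.76 with DMSO (n = 3; log2 change 0.26 ± 0.10 SE, 95% interval 0.04 to 0.48, limma adjusted p = 0.251). The next were BCL2L12 (-0.14 ± 0.08, adjusted p = 0.45) and TNFRSF1A (-0.25 ± 0.17, adjusted p = 0.523). MCL1 above and TNFRSF1A below were the members with no overlap, 6.25% against 28.4% of all loci. The median log2 change was -0.046 for the pro-apoptotic members, 8 of 21 of them positive, and 0.0055 for the anti-apoptotic ones, beside -0.007 over all loci. In size, the pro-apoptotic median exceeded the within-group SD of the medians of single libraries (0.04). The anti-apoptotic one was under its SD (0.0585). The pro-apoptotic median turned to 0.010 without E2 replicate 2, which leaves 1 E2 library. Leaving out each library in turn moved the anti-apoptotic median between -0.0072 and 0.041, so its sign was not stable either.

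BPA 2500 nM against BPA 0.25 nM set the doses side by side. By limma 0 of 32 members were called, against 0.0657% of all tested loci (8 loci), and 2 had an unadjusted p under 0.05 (6.25%, against 7.81%). BIRC2 was lower at the higher dose, at 6.80 ± 0.48 against 10.3 ± 2.08 FPKM (SD, n = 3 each; log2 change -0.52 ± 0.12 SE, limma adjusted p = 0.334). Without BPA 0.25 nM replicate 1, whose BIRC2 level was that of DMSO, the change was -0.68 and passed (limma adjusted p = 0.0274), while over the other alternatives its adjusted p ran from 0.303 to 0.701. CASP9 was lower as well (-0.25 ± 0.11, adjusted p = 0.631), and CYCS came next (-0.28 ± 0.18, adjusted p = 0.753). BIRC2, CASP9 and BOK had no overlap, 9.38% against 16.7% of all loci. The median log2 change was -0.0097 for the pro-apoptotic and -0.019 for the anti-apoptotic members, beside -0.030 over all loci. Leaving out each library in turn moved these medians between -0.027 and 0.0030 and between -0.072 and -0.0044, and the anti-apoptotic one was -0.131 over loci that name 1 gene.

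**Figure D2:**
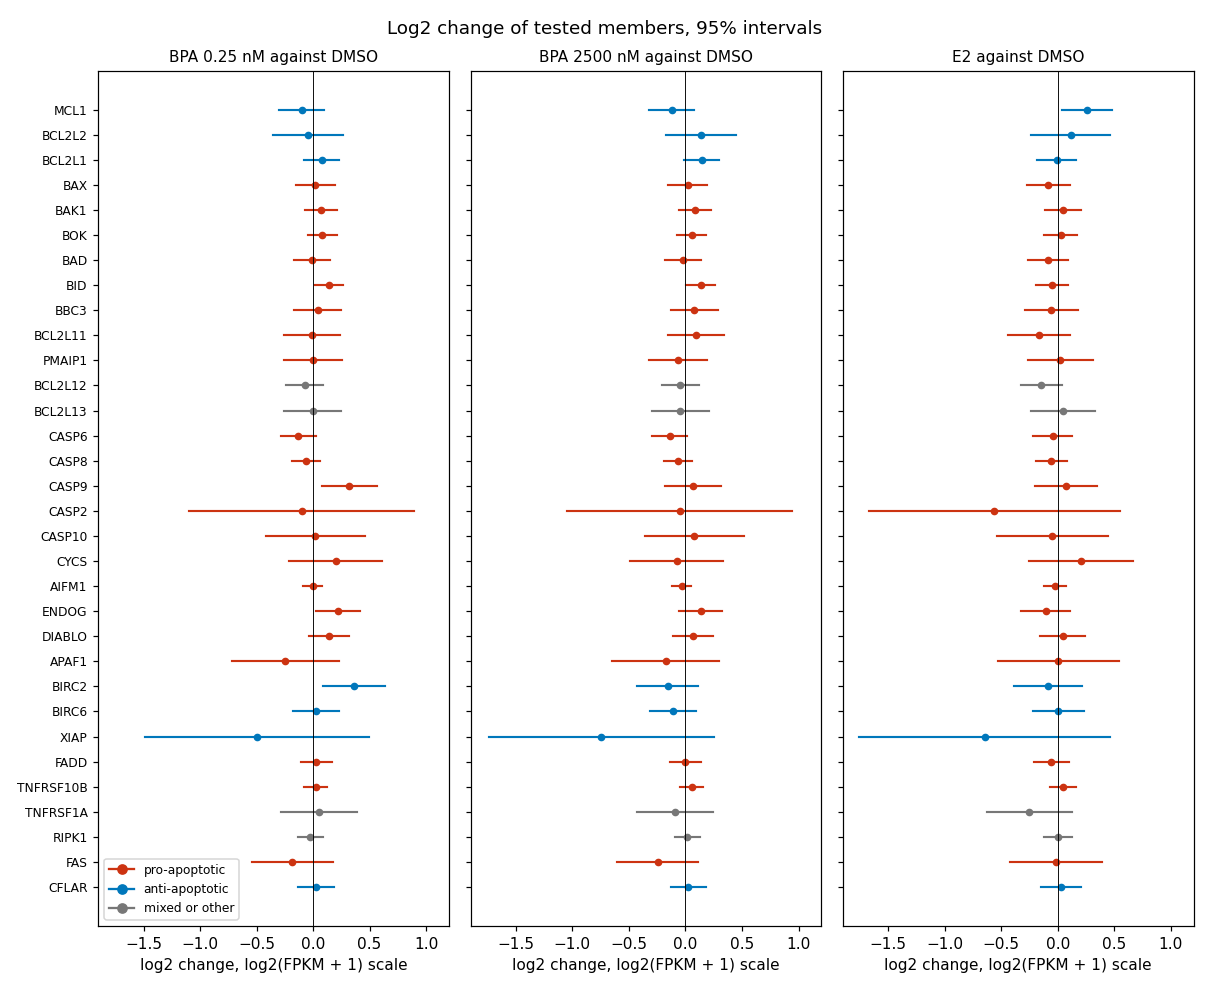
Log2 change of the 32 tested members against DMSO on the log2(FPKM + 1) scale (points) with 95% intervals (lines), a panel per treatment, coloured by side. Most points lie within 0.3 of 0 and nearly all intervals cross it. XIAP and CASP2 have by far the widest intervals. With BPA 0.25 nM the intervals of BIRC2, CASP9, ENDOG and BID sit to the right of 0. So do those of BID with BPA 2500 nM and MCL1 with E2.

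A p that misses the threshold does not show that levels were alike, so the intervals are given. The 95% interval lay wholly within 0.5 of 0 on the log2 scale for 25 of 32 members with BPA 0.25 nM (78.1%, against 82.2% of all tested loci). It did so for 27 with BPA 2500 nM (84.4%, against 79.6%) and for 26 with E2 (81.2%, against 76.2%), each against DMSO. For BAX the intervals were -0.15 to 0.19 with BPA 0.25 nM, -0.15 to 0.19 with BPA 2500 nM and -0.27 to 0.10 with E2. For BAK1 they were -0.07 to 0.21, -0.06 to 0.22 and -0.11 to 0.20 in the same order. TNFRSF10B was bounded more tightly, at -0.08 to 0.13, -0.05 to 0.16 and -0.07 to 0.16, and AIFM1 at -0.09 to 0.08, -0.12 to 0.05 and -0.12 to 0.07.

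The balance of effectors to guards is described by the summed FPKM of BAX and BAK1 over that of MCL1 and BCL2L1, a ratio that leaves out BCL2L2, was chosen after the values were seen and is given with no test. It was 0.632 ± 0.02 with DMSO, 0.683 ± 0.06 with BPA 0.25 nM and 0.682 ± 0.04 with BPA 2500 nM (SD, n = 3 each), and 0.541 ± 0.08 with E2 (n = 2). Single libraries ran from 0.487 (E2 replicate 2) to 0.73 (BPA 0.25 nM replicate 2). Both E2 libraries (0.595 and 0.487) lay below every DMSO library (0.611 to 0.66), and both BPA groups overlapped DMSO. In both E2 libraries MCL1 was higher than in any other, and in E2 replicate 2 BAX was at its lowest.

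A pair of members varied widely within groups, and both were picked out after their values were seen. XIAP, the inhibitor that binds active caspases directly, stood at 1.90, 10.3 and 2.08 FPKM with DMSO, 2.15, 1.95 and 2.88 with BPA 0.25 nM, 1.39, 2.07 and 1.93 with BPA 2500 nM and 1.70 and 2.29 with E2. DMSO replicate 2 alone was high. The log2 change of XIAP with BPA 2500 nM was -0.74 ± 0.44 (SE; limma adjusted p = 0.418) and -0.10 without that library. With BPA 0.25 nM it went from -0.50 to 0.14 without it, and with E2 from -0.64 to -0.004. CASP2, an initiator linked to DNA damage and chromosome number, stood at 6.82, 7.53 and 3.83 FPKM with DMSO, 2.67, 7.35 and 7.53 with BPA 0.25 nM, 2.58, 8.33 and 7.70 with BPA 2500 nM and 4.55 and 2.88 with E2. The low CASP2 libraries were spread over all 4 groups. The within-group SD on the log2 scale was 0.617 for XIAP and 0.618 for CASP2, against a median of 0.112 over the tested members and 0.104 over all tested loci. What sets these libraries apart was not tested.

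**Figure D3:**
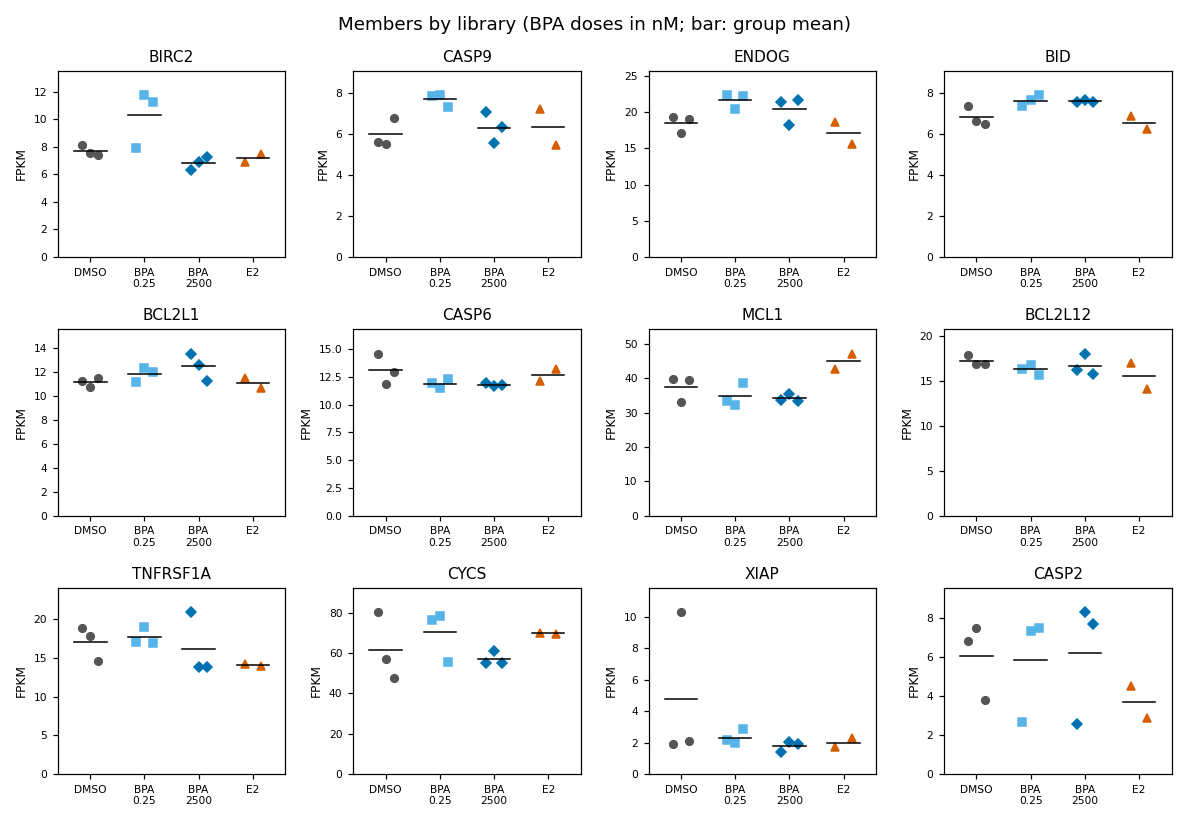
FPKM of 12 members in each of the 11 libraries by group, each axis from 0, with a bar at the group mean. BIRC2 is high in 2 of the 3 libraries of BPA 0.25 nM, MCL1 in both E2 libraries and XIAP in DMSO replicate 2 alone, while CASP2 has high and low libraries within DMSO and both BPA groups.

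The wider apoptosis pathway was read from a further list of 69 genes, of which 62 had a locus and 47 were tested. By limma 0 were called with BPA 0.25 nM, 1 with BPA 2500 nM, 0 with E2 and 0 between the BPA doses. At an unadjusted p under 0.05 there were 5 with BPA 0.25 nM (10.6%, against 9.11% of all tested loci), 9 with BPA 2500 nM (19.1%, against 17.2%), 9 with E2 (19.1%, against 15.4%) and 2 between the doses (4.26%, against 7.81%), shares near those of all loci. Against DMSO, libraries did not overlap for 19.1% of the list at the lower BPA dose (17.1% of all loci), 29.8% at the higher dose (26.6%) and 25.5% under E2 (28.4%). The called gene was PDCD4 (chromosome 10, 110871795 to 110900006, plus strand), a translation inhibitor that is lost in several cancers. PDCD4 stood at 4.24, 4.19 and 4.02 FPKM with DMSO, 3.62, 3.01 and 2.92 with BPA 0.25 nM, 2.73, 2.79 and 2.65 with BPA 2500 nM and 3.07 and 3.57 with E2. Every treated library lay below every DMSO library. PDCD4 fell with BPA 2500 nM from 4.15 ± 0.12 to 2.72 ± 0.07 FPKM (SD, n = 3 each; log2 change -0.47 ± 0.07 SE, limma adjusted p = 0.0219). With BPA 0.25 nM its log2 change was -0.30 ± 0.07 (adjusted p = 0.332) and with E2 -0.26 ± 0.08 (adjusted p = 0.174). The call was lost without any single library of DMSO or of BPA 2500 nM (limma adjusted p from 0.0511 to 0.0982), and when all loci were tested whatever their level (0.0628).

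Close to the threshold stood BNIP3, its relative BNIP3L and TRADD. BNIP3, a BH3-like protein of hypoxia that drives mitophagy, stood at 34.0, 32.9 and 30.5 FPKM with DMSO, 27.8, 27.4 and 27.4 with BPA 0.25 nM, 26.0, 27.5 and 28.9 with BPA 2500 nM and 25.9 and 25.8 with E2. Every treated library lay below DMSO (log2 change -0.23 ± 0.05, -0.23 ± 0.05 and -0.32 ± 0.06 SE; limma adjusted p = 0.31, 0.0654 and 0.0542). BNIP3 passed with E2 when only loci with a mean of at least 5 FPKM were tested (adjusted p = 0.0443). BNIP3L stood at 22.0, 24.5 and 22.0 FPKM with DMSO, 19.3, 16.1 and 17.7 with BPA 0.25 nM, 13.2, 15.5 and 17.0 with BPA 2500 nM and 14.6 and 7.96 with E2. Its log2 change with E2 was -1.01 ± 0.20 (limma adjusted p = 0.0692), and -1.41 without E2 replicate 1 (adjusted p = 0.0078). That value rests on 1 E2 library, the lowest of all for BNIP3L, which is assumed to vary like the other groups. With BPA 2500 nM it was -0.56 ± 0.18 (adjusted p = 0.161), and it passed when either E2 library was left out of the fit (adjusted p = 0.0349 and 0.0347).

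TRADD, the adaptor of TNFRSF1A, stood at 4.33, 3.49 and 3.56 FPKM with DMSO, 3.08, 3.44 and 3.41 with BPA 0.25 nM, 3, 3.05 and 3.32 with BPA 2500 nM and 2.56 and 2.45 with E2 (log2 change with E2 -0.45 ± 0.08 SE, limma adjusted p = 0.0555). TNFSF10, which encodes TRAIL, the ligand of TNFRSF10B, stood at 3.01, 3.44 and 3.15 FPKM with DMSO, 2.84, 2.49 and 2.89 with BPA 0.25 nM, 2.14, 2.58 and 2.64 with BPA 2500 nM and 2.40 and 2.93 with E2. Its log2 change with BPA 2500 nM was -0.28 ± 0.08 (limma adjusted p = 0.136). In all, 5 of the 47 genes (BNIP3, BNIP3L, PDCD4, TNFSF10 and TRADD) were below every DMSO library in every treated library, or 10.6%, against 3.03% of all tested loci. PTRH2 and VDAC3, named after their values were seen, were above every DMSO library in every treated library (4.26%, against 2.34%). Of the 32 tested members 0 lay wholly on either side. These counts use the same 3 DMSO libraries for every treatment and were made after the values were seen. The list itself was chosen with earlier results of these data known, so its shares are a description and not a test.

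Between the BPA doses the smallest p in this list was that of TMBIM6, a membrane protein of the endoplasmic reticulum that counters BAX. TMBIM6 stood at 52.8, 28.9 and 31.4 FPKM with DMSO, 29.1, 33.2 and 31.3 with BPA 0.25 nM, 49.4, 62.1 and 60.1 with BPA 2500 nM and 29.9 and 60.9 with E2. Its libraries fell into a low and a high set, with both in DMSO and in E2 (BPA 2500 nM against 0.25 nM: log2 change 0.85 ± 0.27 SE, limma adjusted p = 0.504). TRAF3, a ubiquitin ligase of TNF receptor signalling, stood at 2.23 ± 0.50 FPKM with BPA 2500 nM against 3.01 ± 0.18 with BPA 0.25 nM (SD, n = 3 each; adjusted p = 0.644). PDCD6 was matched only to a locus joined with SDHA and AHRR and is uncertain, at 7.10 ± 0.12 FPKM with BPA 0.25 nM against 6.52 ± 0.07 with DMSO (adjusted p = 0.486).

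**Figure D4:**
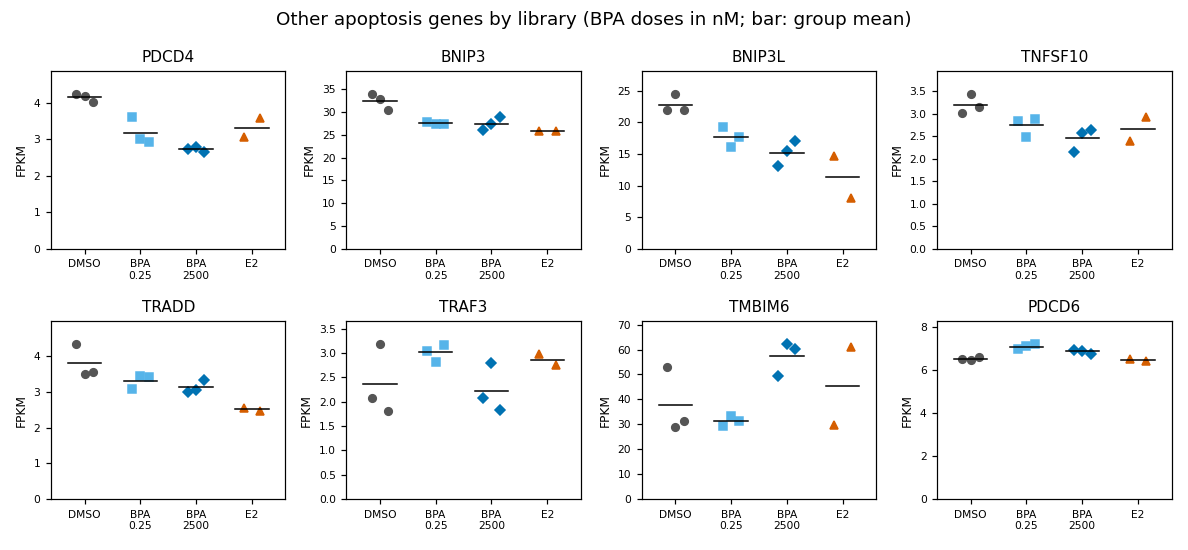
FPKM of 8 further apoptosis genes in each of the 11 libraries by group, each axis from 0, with a bar at the group mean. PDCD4, BNIP3, BNIP3L, TRADD and TNFSF10 are lower in every treated library than in every DMSO library, as are 3.03% of all tested loci. The list they come from was chosen with earlier results of these data known. TMBIM6 has high and low libraries within DMSO and E2.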

How the data were processed

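RNA of 11 IOSE80 libraries was analysed. The authors deposited 1 FPKM value per locus and library, to 2 decimals; the submitters' processing notes list HISAT, UMI-tools, StringTie and edgeR without versions or settings. Those notes name hg19, but of 14123 Ensembl loci found in GENCODE 29 (GRCh38), 74.8% share start and end, so positions are on GRCh38. The strand setting was not given in the sources used here. Depth is unknown, and precision rests on the spread between libraries.

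The 12182 loci with at least 1 FPKM in at least 2 libraries were tested on log2(FPKM + 1) with limma 3.58.1 (R 4.3.3; 1 mean per group over all 11 libraries; trend and robust settings with statmod 1.5.0; 7 residual and a median of 2.4 prior degrees of freedom), two-sided, with Benjamini-Hochberg adjustment over all tested loci in each of 4 comparisons; adjusted p under 0.05 was called. The code was tested on simulated data. Pro-apoptotic (25), anti-apoptotic (10) and other members (5) were assigned by textbook role. Members and lists were chosen with earlier results of these data known. CAD, a pyrimidine synthesis enzyme entered in the further list in error, was removed when only its mean level had been seen. Values in every library are given for called members, the 3 with the smallest p per comparison and the 2 highest per class; of the further list the called genes and the 3 with the smallest p per comparison are named. Alternatives covered pseudocount, filter, scaling, fit settings, replicate block, loci naming 1 gene and each library left out. Tables and plots were made with matplotlib 3.10.9, numpy 2.4.6 and pandas 2.3.3 under Python 3.11.15.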

Additional observations from a re-analysis of the deposited data

How the results depend on the processing

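Of 2504 member results recomputed under the alternatives, 1 passed the threshold (BIRC2 between the BPA doses without BPA 0.25 nM replicate 1, 1 member called in place of 0); in 129 the sign of a change that had not passed was different. The count of all called loci moved more. For BPA 0.25 nM against DMSO (2 loci) it was 0 with a mean FPKM of at least 5, 9 when fitted on the compared groups alone, 1 after either rescaling, 1 with no trend or robust setting and 1 with the replicate block. For BPA 2500 nM against DMSO (158) it was 39 with no filter, 102 with a mean FPKM of at least 5, 13 when fitted on the compared groups alone and 38 with the replicate block. For E2 against DMSO (51) it was 33 with no filter, 2 when fitted on the compared groups alone and 5 with the replicate block. Between the BPA doses (8) it was 3 after rescaling to the same FPKM total, with no trend or robust setting, when fitted on the compared groups alone, and with the replicate block.

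Leaving out each library in turn gave 0 to 9, 32 to 251, 7 to 189 and 2 to 10 called loci in the same order (where the count moved by over 1.5 times between the doses, 2 to 5), and 0 members, or 0 to 1 between the doses. Over the same fits the anti-apoptotic median with BPA 2500 nM against DMSO ran from -0.127 to -0.037, and the pro-apoptotic median with E2 from -0.061 to 0.010. Between the doses the anti-apoptotic median was -0.131 over loci naming 1 gene. The cause of these shifts was not tested. Correlations of the deviations from the group means were computed between libraries of different groups. For same-numbered libraries the correlations ran from -0.117 to 0.164 (1 of 15 above 0.1, beside 3 of 30 pairs with different numbers). The 2 E2 libraries deviate from their mean by equal and opposite amounts. Each correlation with E2 thus recurs with its sign reversed, and these values are not independent. Replicate numbers are not taken to pair samples. With the block, no member passed, and PDCD4 with BPA 2500 nM was no longer called (limma adjusted p = 0.0643). The read depth behind the FPKM is unknown, and what it limits was not tested.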
